A study of Drosophila melanogaster with 6 samples.

Results

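The genes described here encode the machinery that prepares and feeds DNA replication: the 6 subunits of the MCM2-7 helicase (Mcm2, Mcm3, dpa, Mcm5, Mcm6 and Mcm7, where dpa is the fly MCM4), the licensing factor dup and its inhibitor geminin, and the large and small subunits of ribonucleotide reductase (RnrL and RnrS). They were chosen by name, as the rows of the expression table that carry these symbols, and all 10 were found among the 15603 genes listed. The MCM2-7 ring is loaded onto replication origins before S phase by the origin recognition complex, Cdc6 and the Cdt1 protein that dup encodes, and is later activated to unwind DNA. Geminin binds Cdt1 and blocks further loading once replication has begun, and ribonucleotide reductase makes the deoxynucleotides that the polymerases use. In the adult fly midgut these genes serve the divisions of intestinal stem cells (ISCs) and also the endoreplication cycles of enteroblasts (EBs) that grow into enterocytes.

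The study asked how ISCs of Drosophila melanogaster respond to proteotoxic stress, and sequenced RNA from sorted escargot-positive (esg+) cells, the ISCs and EBs, of 7-day-old females. HttQ138 is a form of huntingtin with an expanded polyglutamine tract that aggregates, Rpn3 is a subunit of the proteasome lid, and CncC is the fly Nrf2 transcription factor. Stress came from HttQ138 expression (esgGal4ts > HttQ138, control esgGal4ts > +, called w1118), from HttQ138 expression together with an RNAi transgene against CncC (esgGal4ts > CncCRNAi and HttQ138, control esgGal4ts > CncCRNAi), or from Rpn3 knockdown (attP2, esgGal4ts > Rpn3RNAi, control attP2, esgGal4ts > +, called attP2). All 6 groups carry esgGal4ts, a temperature-sensitive driver that acts in ISCs and EBs and also drives the GFP used for sorting, and the first 4 were held at 29 °C for 2 days while Rpn3RNAi and attP2 were held there for 4 days.

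Each group is 1 library made from the pooled guts of many females, so no difference below has a replicate check and no p-value is given. Values are FPKM, fragments scaled by gene length and by library size, as the authors deposited them. The intervals are 95% counting intervals from fragment numbers estimated for each gene, and they cover counting error only. The libraries held an estimated 2790000 to 3640000 fragments from 16611 to 62921 sorted cells, and a member was represented by 9 to 630 fragments. The defining marker esg lay between 287 and 346 FPKM in all 6 libraries. The summed FPKM of 7 ISC and EB markers lay between 722 and 854, most of it from esg and Sox100B. Single markers varied more, and Sox100B ran from 191 FPKM in w1118 to 374 in CncCRNAi. Of the 7, 3 were higher and 4 lower in HttQ138 than in w1118, with klu at 39.2 against 74.1 FPKM and N at 13.7 against 25.2. In CncCRNAi+HttQ138 2 were higher and 5 lower than in CncCRNAi, with klu at 37.3 against 51.1 FPKM and N at 14.3 against 19.9. In Rpn3RNAi 4 were higher and 3 lower than in attP2, with klu at 46.3 against 52.1 FPKM and N at 18.9 against 16.5. The targeted gene cnc was at 75.6 and 64.4 FPKM in the libraries labelled CncCRNAi+HttQ138 and CncCRNAi, against 60.7 and 63.8 FPKM in HttQ138 and w1118, so its level does not show the knockdown that the labels give. Rpn3 was at 63.2 FPKM in the library labelled Rpn3RNAi, against 77.1 FPKM in attP2. It was lower than in Rpn3RNAi in w1118 (45.5 FPKM), CncCRNAi (37.7) and CncCRNAi+HttQ138 (33.1), and higher in HttQ138 (71.0).

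All 10 genes were above 0 in every library, and as a group they were highest in the libraries labelled CncCRNAi and attP2, which are unstressed controls. CncCRNAi held the highest level of 6 members and attP2 that of the other 4, and for 9 of 10 members these libraries took the top 2 places. The lowest level fell in Rpn3RNAi for 5 members, in HttQ138 for 2, in w1118 for 2 and in CncCRNAi+HttQ138 for 1. The third control, w1118, was below both of these for all 10 members. In bulk samples such as these, fewer cells expressing a gene and less RNA per cell cannot be told apart.

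**Figure D1:**
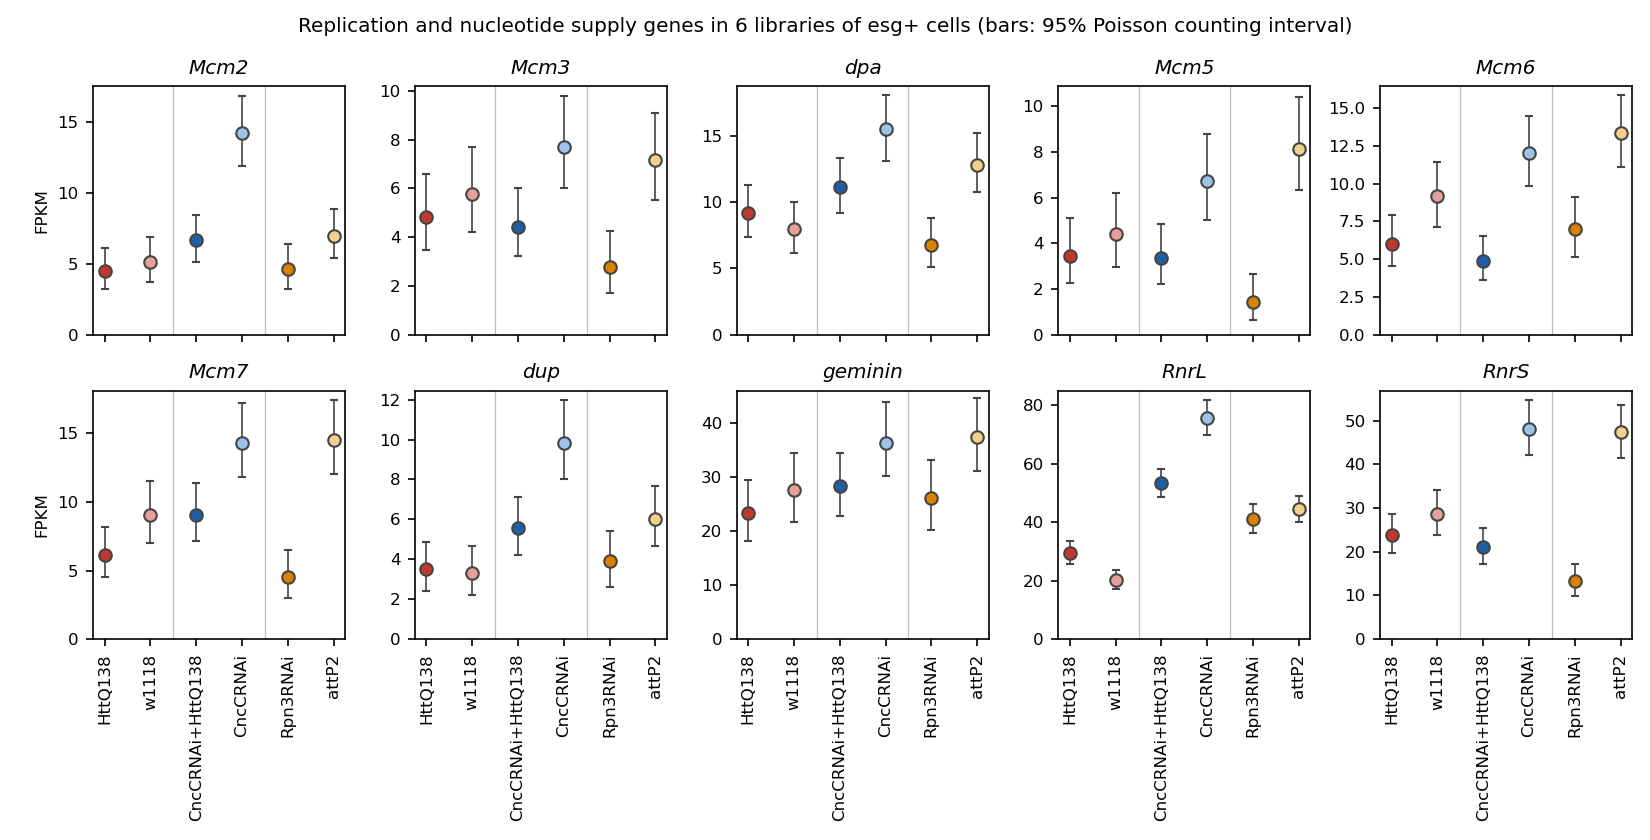
FPKM (vertical axes, each starting at 0) of the 10 genes in the 6 libraries, each stressed library to the left of its own control; points are the deposited values and bars are 95% Poisson counting intervals. Every gene is highest in CncCRNAi or attP2, and RnrS in Rpn3RNAi, at 13.3 FPKM, lies far below its level in attP2, at 47.3 FPKM.

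Among the helicase subunits, Mcm2 (FBgn0014861) was at 4.45 FPKM in HttQ138 against 5.09 in w1118, at 6.65 in CncCRNAi+HttQ138 against 14.2 in CncCRNAi, and at 4.63 in Rpn3RNAi against 6.96 in attP2. Mcm2 is the subunit of the ring that also binds histones, and CncCRNAi stood above all other libraries, 2.04-fold over attP2 as the next in order (1.51 to 2.78). Mcm3 (FBgn0024332) was at 4.81 FPKM in HttQ138 against 5.76 in w1118, at 4.42 in CncCRNAi+HttQ138 against 7.70 in CncCRNAi, and at 2.77 in Rpn3RNAi against 7.17 in attP2. No 2 neighbours in the order of its levels differed beyond counting error. The MCM4 gene dpa (FBgn0015929) was at 9.17 FPKM in HttQ138 against 7.96 in w1118, at 11.1 in CncCRNAi+HttQ138 against 15.5 in CncCRNAi, and at 6.77 in Rpn3RNAi against 12.8 in attP2. It is the only subunit that was not lower in HttQ138 than in w1118, and its interval there included 1 (ratio 1.15, 0.836 to 1.61).

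Mcm5 (FBgn0017577), which with Mcm2 forms the gate through which the ring opens, had the lowest level of the 6 subunits in 5 of the 6 libraries. It was at 3.46 FPKM in HttQ138 against 4.40 in w1118, at 3.34 in CncCRNAi+HttQ138 against 6.71 in CncCRNAi, and at 1.41 in Rpn3RNAi against 8.14 in attP2. The Rpn3RNAi value rests on about 9 fragments, against 67 in attP2, and was below the next library in the order beyond counting error. Mcm6 (FBgn0025815) was at 6.03 FPKM in HttQ138 against 9.16 in w1118, at 4.89 in CncCRNAi+HttQ138 against 12.0 in CncCRNAi, and at 6.99 in Rpn3RNAi against 13.3 in attP2. Its 3 stressed levels lay below its 3 control levels, although neighbours in this order did not differ beyond counting error. Mcm7 (FBgn0020633) was at 6.11 FPKM in HttQ138 against 9.07 in w1118, at 9.05 in CncCRNAi+HttQ138 against 14.3 in CncCRNAi, and at 4.55 in Rpn3RNAi against 14.6 in attP2. In the reference annotation 81.7% of the exon bases of Mcm7 are shared with asRNA:CR45871 on the other strand, and since strand use in counting is not given in the sources used here, reads of the pair cannot be told apart.

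The summed FPKM of the 6 subunits was 34.0 in HttQ138 against 41.4 in w1118, 39.4 in CncCRNAi+HttQ138 against 70.4 in CncCRNAi, and 27.1 in Rpn3RNAi against 62.9 in attP2. The subunits work as a ring with 1 copy of each, yet their levels within a library were unequal. The highest subunit exceeded the lowest by 2.65-fold in HttQ138 against 2.08-fold in w1118, by 3.32-fold in CncCRNAi+HttQ138 against 2.31-fold in CncCRNAi, and by 4.95-fold in Rpn3RNAi against 2.09-fold in attP2.

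Of the licensing pair, dup (FBgn0000996), the fly Cdt1, was at 3.51 FPKM in HttQ138 against 3.31 in w1118, at 5.55 in CncCRNAi+HttQ138 against 9.82 in CncCRNAi, and at 3.90 in Rpn3RNAi against 6.02 in attP2. As with Mcm2, CncCRNAi stood above the next library, attP2, beyond counting error (1.63-fold, 1.18 to 2.27). Geminin (FBgn0033081), its inhibitor, was at 23.4 FPKM in HttQ138 against 27.6 in w1118, at 28.3 in CncCRNAi+HttQ138 against 36.4 in CncCRNAi, and at 26.1 in Rpn3RNAi against 37.5 in attP2. Geminin varied least of the 10 between its lowest and highest library, and no 2 neighbours in its order differed beyond counting error. Geminin FPKM exceeded dup FPKM in every library, by 6.67-fold in HttQ138 against 8.34-fold in w1118, by 5.10-fold in CncCRNAi+HttQ138 against 3.71-fold in CncCRNAi, and by 6.70-fold in Rpn3RNAi against 6.23-fold in attP2. The counting intervals of this ratio overlapped within each of these 3 pairs.

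Both ribonucleotide reductase genes had higher FPKM than any helicase subunit in every library. RnrL (FBgn0011703), the large subunit that holds the catalytic site, was at 29.3 FPKM in HttQ138 against 20.3 in w1118, at 53.3 in CncCRNAi+HttQ138 against 75.7 in CncCRNAi, and at 41.2 in Rpn3RNAi against 44.4 in attP2. Of the 5 neighbouring pairs in its order, 4 differed beyond counting error, the exception being attP2 and Rpn3RNAi. RnrS (FBgn0011704), the small subunit that carries the tyrosyl radical, was at 23.8 FPKM in HttQ138 against 28.6 in w1118, at 20.96 in CncCRNAi+HttQ138 against 48.1 in CncCRNAi, and at 13.3 in Rpn3RNAi against 47.3 in attP2. The steps from attP2 to w1118 and from CncCRNAi+HttQ138 to Rpn3RNAi were beyond counting error. Over the 10 genes, 11 of 50 neighbouring pairs of libraries differed beyond counting error, so most of the fine order of libraries is not resolved at this depth.

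HttQ138 expression alone was accompanied by small differences. Against w1118, 7 members were lower and 3 (dpa, dup and RnrL) were higher, with a median ratio of 0.842. The median log2 ratio was -0.22, on the scale of log2(FPKM + 1). Over all genes at 10 FPKM or more in the higher library it was -0.08, and 57.5% of them were lower. Mcm6 was lower at a ratio of 0.658 (0.456 to 0.959) and RnrL was higher at 1.45 (1.18 to 1.79). The intervals of the other 8 included 1. By a rule of size of at least 1.5-fold with at least 10 FPKM in the higher library, none of the 3 members that reached this level was called, while 16.0% of all genes were called lower and 12.0% higher. At 3-fold none was called either, against 1.73% of genes lower and 3.58% higher. A rule that asks for 1.5-fold and an interval clear of 1, with at least 20 fragments over both libraries, called Mcm6 lower (13.5% of genes) and no member higher (11.9% of genes). Dividing the values by the library sum, or centring them on the median ratio of all genes, brought RnrL past 1.5-fold.

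With the CncCRNAi transgene present in both libraries, HttQ138 expression went with lower levels of all 10 members. The median ratio of CncCRNAi+HttQ138 to CncCRNAi was 0.569 and the median log2 ratio was -0.70, beside -0.12 over all genes, of which 63.3% were lower. Mcm6 had the smallest ratio, 0.406 (0.283 to 0.578), followed by RnrS at 0.436 (0.345 to 0.549) and Mcm2 at 0.468 (0.341 to 0.629). The remaining subunits had ratios between 0.498 for Mcm5 and 0.716 for dpa, dup had 0.565 (0.401 to 0.780), and RnrL had 0.704 (0.624 to 0.795). Geminin, at 0.776 (0.579 to 1.02), was the only member whose interval included 1. By the rule of size 4 of the 7 members at 10 FPKM or more were lower, namely Mcm2, Mcm6, Mcm7 and RnrS, against 12.0% of all genes, and none was higher, against 5.16%. Of these 4, Mcm2, Mcm6 and Mcm7 reached 10 FPKM in the control only. The 3-fold rule called no member, against 1.35% of genes lower and 1.19% higher. By the rule with counting intervals 7 members were lower (these 4 with Mcm3, Mcm5 and dup), against 12.2% of genes, and none was higher, against 4.22%. The result depends on the control library: set against w1118, CncCRNAi+HttQ138 had a median log2 ratio of 0.016.

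Rpn3RNAi also had lower levels of all 10 members than its control, with the lowest median ratio of the 3 stress comparisons. The median ratio of Rpn3RNAi to attP2 was 0.527 and the median log2 ratio was -0.83, beside -0.10 over all genes, of which 58.0% were lower. Mcm5 had a ratio of 0.174 (0.0751 to 0.345), RnrS 0.280 (0.203 to 0.377), Mcm7 0.312 (0.200 to 0.470) and Mcm3 0.386 (0.222 to 0.645). The other subunits were closer to attP2, with Mcm6 at 0.524, dpa at 0.530 and Mcm2 at 0.666 (0.424 to 1.00), so that the intervals of Mcm5 and Mcm2 did not overlap. Both licensing genes were lower, dup at 0.648 (0.404 to 0.989) and geminin at 0.697 (0.507 to 0.947), while RnrL was near its control at 0.928 (0.790 to 1.08). By the rule of size 4 of the 6 members at 10 FPKM or more were lower (dpa, Mcm6, Mcm7 and RnrS), against 17.6% of all genes, and none was higher, against 14.9%. Of these 4, dpa, Mcm6 and Mcm7 reached 10 FPKM in the control only. Mcm7 and RnrS also passed 3-fold, against 1.86% of genes lower and 6.94% higher. By the rule with counting intervals 7 members were lower (these 4 with Mcm3, Mcm5 and dup), against 14.7% of genes, and none was higher, against 15.2%. Set against w1118 in place of attP2, the median log2 ratio was -0.28.

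**Figure D2:**
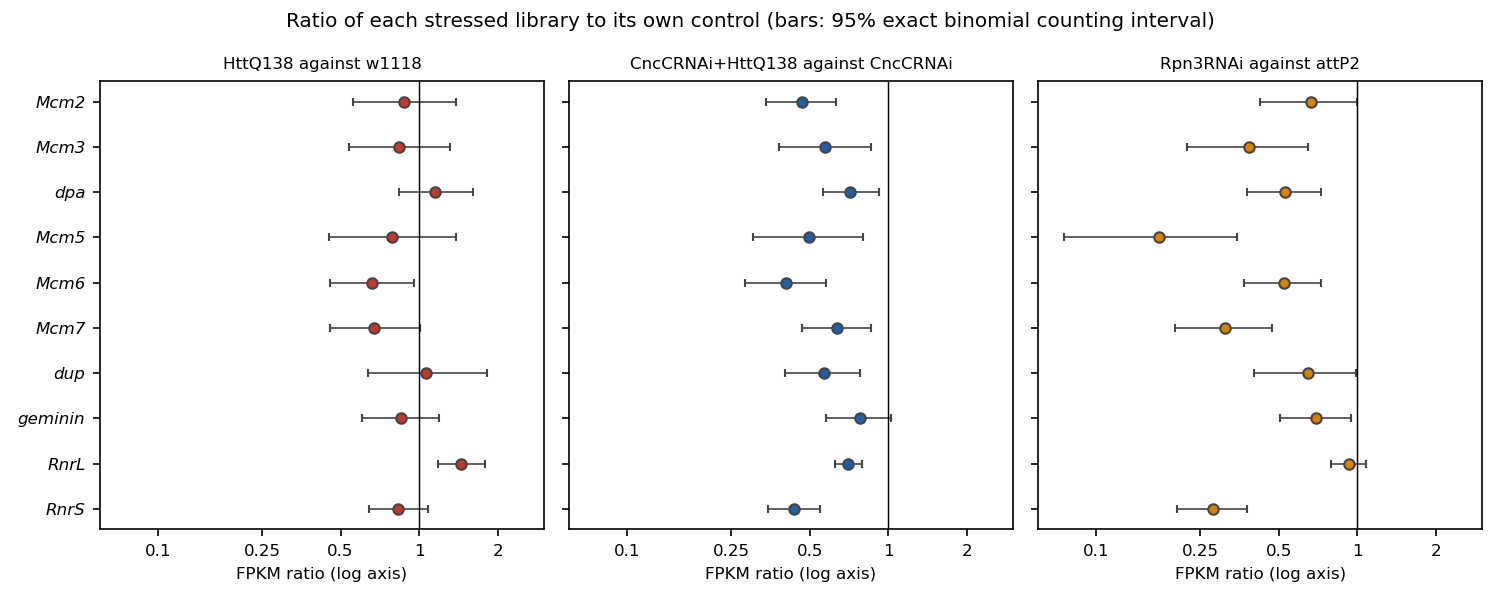
Ratio of FPKM in each stressed library to its own control (horizontal log axes, line at 1) for the 10 genes; points are ratios and bars are 95% exact binomial counting intervals. In the HttQ138 panel 8 of 10 intervals include 1, in the CncCRNAi+HttQ138 panel 9 of 10 lie below 1, and in the Rpn3RNAi panel 8 of 10 lie below 1.

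Markers of other midgut cells moved with some of these comparisons. The summed FPKM of 9 enterocyte markers was 6338 in Rpn3RNAi against 525 in attP2, with 7 of 9 higher and most of the sum in the trypsin genes alphaTry and betaTry. The same sum was 1144 in HttQ138 against 437 in w1118, with 8 of 9 higher, and 627 in CncCRNAi+HttQ138 against 648 in CncCRNAi, with 4 of 9 higher. The summed FPKM of 10 enteroendocrine markers was 261 in Rpn3RNAi against 150 in attP2 (10 of 10 higher), 363 in HttQ138 against 503 in w1118 (7 of 10 higher), and 97.1 in CncCRNAi+HttQ138 against 261 in CncCRNAi (3 of 10 higher). Of 6 ovary markers, Yp1, a yolk protein gene that fat body also expresses, made up nearly all of the sum, at 226 FPKM in Rpn3RNAi against 76.3 in attP2 for the list, while osk was at 0 in both and the chorion gene Cp36 was at 0 in all 6 libraries. Visceral muscle markers summed to at most 16.5 FPKM in any library. Hemocyte markers summed to 114 to 176 FPKM, nearly all from crq, a scavenger receptor gene, while Hml was at most 0.530 FPKM. The part of these markers in the results was not tested.

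The unstressed controls CncCRNAi and attP2 both differed from w1118. The library labelled CncCRNAi exceeded w1118 for all 10 members, with a median ratio of 1.63. The median log2 ratio was 0.67, beside 0.13 over all genes, of which 38.0% were lower. RnrL had the largest ratio at 3.73 (3.12 to 4.49), then dup at 2.97 (1.99 to 4.70) and Mcm2 at 2.79 (1.97 to 4.03). By the rule with counting intervals 6 members were higher (Mcm2, dpa, Mcm7, dup, RnrL and RnrS), against 19.3% of all genes, and none was lower, against 6.22%. The attP2 library likewise exceeded w1118 for all 10, with a median ratio of 1.60 and the largest ratio again for RnrL, at 2.19 (1.81 to 2.67). Its median log2 ratio was 0.62, beside 0.08 over all genes, of which 42.3% were lower. Here 6 members were higher by that rule (dpa, Mcm5, Mcm7, dup, RnrL and RnrS), against 15.1% of genes, and none was lower, against 7.35%. Both comparisons use the w1118 library, so they are not independent of each other. CncCRNAi and attP2 were closer, with a median ratio of CncCRNAi to attP2 of 1.05. The intervals included 1 for 7 of the 10 members, and Mcm2 at 2.04 (1.51 to 2.78), RnrL at 1.71 (1.499 to 1.940) and dup at 1.63 (1.18 to 2.27) were higher in CncCRNAi. attP2 and w1118 also differ in genetic background and in days at 29 °C, which cannot be told apart here. By the paper's genotypes the CncCRNAi flies also carry a y,w1118 chromosome that the w1118 flies lack, which cannot be told apart from the transgene.

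**Figure D3:**
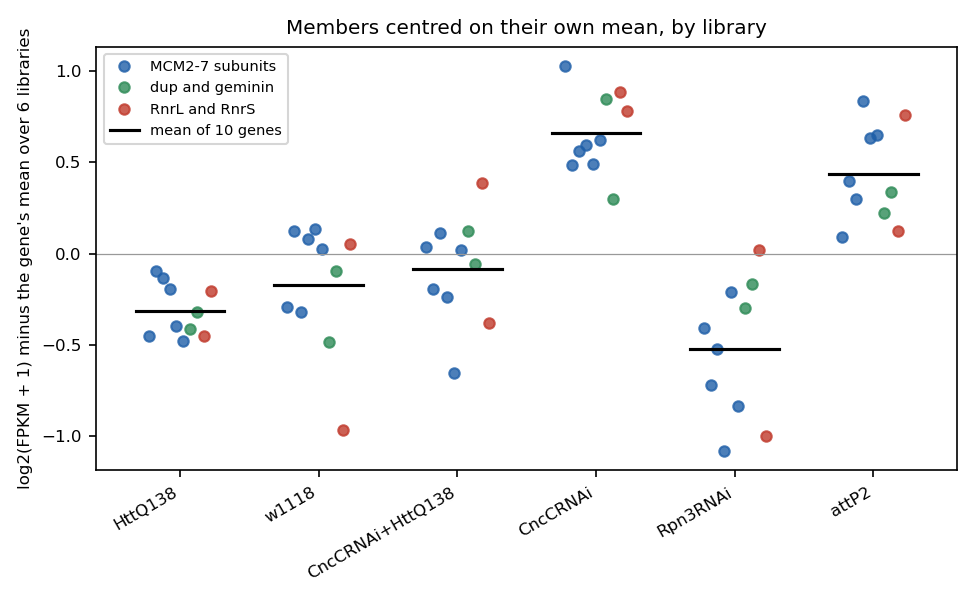
log2(FPKM + 1) of each of the 10 genes minus its own mean over the 6 libraries (vertical axis), by library, with each stressed library left of its control; points are genes, coloured by helicase subunits, licensing genes and ribonucleotide reductase, and black lines are means of the 10. The mean is 0.66 in CncCRNAi and 0.44 in attP2 and lies below 0 in the other 4 libraries, w1118 included, with the lowest mean, -0.52, in Rpn3RNAi.

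The HttQ138 comparison can be set side by side with and without the CncCRNAi transgene, since the pairs share no library. The ratio to control was smaller with the transgene for all 10 members, and this held for 51.1% of the 5873 genes at 10 FPKM or more in at least 1 of the 4 libraries and above 0 in each. For Mcm2 the ratio was 0.468 with the transgene and 0.874 without it, for RnrS 0.436 and 0.831, and for RnrL 0.704 and 1.45. The MCM sums of CncCRNAi+HttQ138 and HttQ138 were 39.4 and 34.0 FPKM, and those of their controls CncCRNAi and w1118 lay further apart, at 70.4 and 41.4 FPKM. No test of the difference is possible with 1 library per group, and the 2 pairs also differ in genetic background.

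The balance of the ribonucleotide reductase subunits differed between libraries. Both subunits are needed for an active enzyme, and their ratio within a library does not depend on how the libraries were scaled. RnrL FPKM over RnrS FPKM was 1.23 (0.978 to 1.56) in HttQ138 against 0.710 (0.554 to 0.901) in w1118, 2.54 (2.06 to 3.15) in CncCRNAi+HttQ138 against 1.57 (1.35 to 1.83) in CncCRNAi, and 3.10 (2.32 to 4.26) in Rpn3RNAi against 0.938 (0.798 to 1.11) in attP2. In each pair the stressed library had the higher ratio with no overlap of the counting intervals, by 1.74-fold, 1.61-fold and 3.31-fold in that order. Among the controls the ratio ranged from 0.710 in w1118 to 1.57 in CncCRNAi, a 2.22-fold span that is wider than the HttQ138 differences and narrower than the Rpn3RNAi difference. The unstressed CncCRNAi library had a higher ratio than the stressed HttQ138 library.

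**Figure D4:**
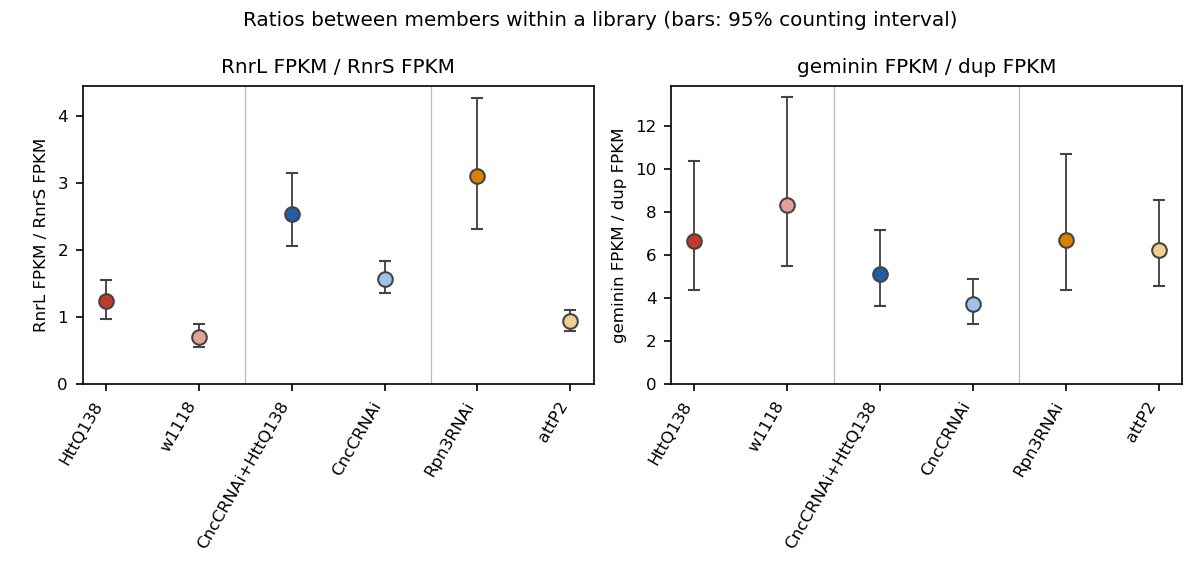
Left, RnrL FPKM divided by RnrS FPKM; right, geminin FPKM divided by dup FPKM, in each of the 6 libraries with the stressed library left of its control; points are ratios and bars are 95% counting intervals. The RnrL to RnrS ratio is highest in Rpn3RNAi, at 3.10, and the geminin to dup ratio is lowest in CncCRNAi, at 3.71.

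The other genes of the pathway were described from 7 lists of 74 genes, all of which were found in the table. By the rule of size, 7 of 36 genes at 10 FPKM or more were lower and 5 higher in HttQ138 than in w1118, beside the 16.0% and 12.0% of all genes above. In CncCRNAi+HttQ138 9 of 38 were lower and none higher than in CncCRNAi, beside 12.0% and 5.16% of all genes. In Rpn3RNAi 9 of 38 were lower and none higher than in attP2, beside 17.6% and 14.9% of all genes. In each comparison 1 or more of the genes called lower reached 10 FPKM in the control only. By the rule with counting intervals 11 of 61 were lower and 5 higher in HttQ138, beside 13.5% and 11.9% of all genes. In CncCRNAi+HttQ138 16 of 64 were lower and none higher by that rule, beside 12.2% and 4.22%. In Rpn3RNAi 15 of 63 were lower and 1 higher, beside 14.7% and 15.2%. Among the genes that license origins, the origin recognition subunit Orc1 followed the pattern of Mcm2, at 2.86 FPKM in HttQ138 against 3.27 in w1118, at 7.40 in CncCRNAi+HttQ138 against 13.5 in CncCRNAi, and at 2.05 in Rpn3RNAi against 4.84 in attP2. Orc4, another subunit, did not, with 11.6 FPKM in Rpn3RNAi against 9.45 in attP2 (ratio 1.23, 0.821 to 1.90). The helicase activation list of 11 genes lay near the controls in 2 comparisons, with median log2 ratios of -0.05 in CncCRNAi+HttQ138 and -0.12 in Rpn3RNAi, and had a median of -0.37 in HttQ138, where none of its genes was called by either rule. In it l(1)G0148, the fly Cdc7 kinase, was at 22.5 FPKM in CncCRNAi+HttQ138 against 34.2 in CncCRNAi, and Psf1, a subunit of the GINS complex, was at 8.58 FPKM in Rpn3RNAi against 14.8 in attP2 with an interval that included 1. The 9 replicative polymerase subunits stayed below 10 FPKM in every library, and all 9 were lower in CncCRNAi+HttQ138 than in CncCRNAi, 6 of 9 lower in Rpn3RNAi than in attP2, and 2 of 9 lower in HttQ138 than in w1118.

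At the replication fork, mus209, which encodes the sliding clamp PCNA, was at 38.4 FPKM in HttQ138 against 24.6 in w1118 (ratio 1.56, 1.16 to 2.15), at 48.1 in CncCRNAi+HttQ138 against 70.02 in CncCRNAi (0.688, 0.560 to 0.851), and at 23.8 in Rpn3RNAi against 48.5 in attP2 (0.490, 0.360 to 0.666). PCNA thus lay on opposite sides of its control in the HttQ138 comparisons without and with the transgene, as RnrL did. RpA-70, the large subunit of the single-stranded DNA binding protein RPA, was at 52.6 FPKM in HttQ138 against 38.1 in w1118, at 117 in CncCRNAi+HttQ138 against 166 in CncCRNAi, and at 101 in Rpn3RNAi against 84.3 in attP2. It was higher in Rpn3RNAi than in attP2 (ratio 1.20, 1.07 to 1.35), where all 10 members were lower. Of the 7 fork genes at 10 FPKM or more, 3 were higher and none lower in HttQ138, beside 12.0% and 16.0% of all genes. In each of the other comparisons 1 was lower and none higher. Of all genes, 12.0% were lower and 5.16% higher in CncCRNAi+HttQ138, and 17.6% and 14.9% in Rpn3RNAi. By the rule with counting intervals 1 of 12 fork genes was lower and 3 higher in HttQ138, beside 13.5% and 11.9% of all genes. In CncCRNAi+HttQ138 3 of 13 were lower and none higher, beside 12.2% and 4.22%. In Rpn3RNAi 2 of 13 were lower and 1 higher, beside 14.7% and 15.2%.

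In the supply of nucleotides, dUTPase, which removes dUTP and yields the precursor of thymidylate, was at 55.7 FPKM in HttQ138 against 56.9 in w1118, at 65.8 in CncCRNAi+HttQ138 against 87.1 in CncCRNAi, and at 45.0 in Rpn3RNAi against 94.2 in attP2. All 8 genes of thymidylate and deoxynucleotide supply were lower in Rpn3RNAi than in attP2, beside 58.0% of all genes. By the rule of size 3 of 7 were lower there, beside 17.6% of all genes, and none was higher, beside 14.9%. In CncCRNAi+HttQ138 3 of 8 were lower, beside 12.0%, and none higher, beside 5.16%. In HttQ138 none of 6 was lower, beside 16.0%, and 2 of 6 were higher, beside 12.0%. In both CncCRNAi+HttQ138 and Rpn3RNAi, 1 or more of the genes called lower reached 10 FPKM in the control only. By the rule with counting intervals 1 of 8 was lower in CncCRNAi+HttQ138, beside 12.2% of all genes, and 3 of 8 in Rpn3RNAi, beside 14.7%. None was higher in these, beside 4.22% and 15.2%. In HttQ138 that rule called none of 8 lower, beside 13.5%, and 2 of 8 higher, beside 11.9%. Of the 14 genes of purine and pyrimidine synthesis, 13 were lower in HttQ138 than in w1118, beside 57.5% of all genes. The last, Prat2, was at 0 in every library. By the rule of size 5 of 13 were lower in HttQ138, beside 16.0% of all genes. In CncCRNAi+HttQ138 and in Rpn3RNAi 2 of 13 were lower, beside 12.0% and 17.6%. None was higher in any of the 3 comparisons, beside 12.0%, 5.16% and 14.9% of all genes. The pyrimidine gene r, whose product starts that pathway, was at 16.3 FPKM in HttQ138 against 31.2 in w1118 (ratio 0.523, 0.459 to 0.596). The purine gene ade5 was at 25.8 FPKM in HttQ138 against 44.3 in w1118, and at 13.3 in Rpn3RNAi against 29.6 in attP2.

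Among the S-phase regulators, dap, which encodes the cyclin E-Cdk2 inhibitor Dacapo, was lower in every stressed library, at 14.4 FPKM in HttQ138 against 30.5 in w1118 (ratio 0.473, 0.374 to 0.598), 13.8 in CncCRNAi+HttQ138 against 27.2 in CncCRNAi (0.508, 0.402 to 0.635) and 16.9 in Rpn3RNAi against 32.5 in attP2 (0.519, 0.413 to 0.649). The 3 control levels of dap lay between 27.2 and 32.5 FPKM. The paper reports the opposite direction at an earlier time, from antibody staining and in situ hybridization in guts. There, Dacapo protein and dap transcript rose in ISCs with HttQ138, and not when CncC was knocked down. Dacapo protein also rose there in ISCs with Rpn3 knockdown. The libraries here are RNA of pooled ISCs and EBs after 2 or 4 days, and the difference was not tested. By the rule of size 2 of 6 genes of this list were lower in HttQ138, 1 in CncCRNAi+HttQ138 and 2 in Rpn3RNAi. Of all genes 16.0%, 12.0% and 17.6% were lower, in that order. None of the list was higher by that rule, beside 12.0%, 5.16% and 14.9% of all genes. In direction alone, 4 of 11 genes of the list were higher in HttQ138 and 4 in Rpn3RNAi, while all 11 were lower in CncCRNAi+HttQ138. E2f2 was at 16.7 FPKM in Rpn3RNAi against 11.4 in attP2 (ratio 1.47, 1.06 to 2.02). Rbf was at 16.0 FPKM in HttQ138 against 13.4 in w1118, with an interval that included 1. The fzr gene, listed as rap, encodes the activator of the anaphase-promoting complex used in endocycles, and was at 27.8 FPKM in HttQ138 against 54.3 in w1118, at 28.2 in CncCRNAi+HttQ138 against 39.2 in CncCRNAi, and at 22.5 in Rpn3RNAi against 45.5 in attP2. E2f, which encodes the activator E2F1 that drives many replication genes, was at 20.7 FPKM in HttQ138 against 30.9 in w1118 (ratio 0.668, 0.575 to 0.773), and differed by less in CncCRNAi+HttQ138 (0.969, 0.846 to 1.11) and Rpn3RNAi (0.866, 0.750 to 0.998). CycE, cyclin E, was low throughout, at 0.871 FPKM in HttQ138 against 0.908 in w1118, 1.55 in CncCRNAi+HttQ138 against 2.77 in CncCRNAi, and 2.01 in Rpn3RNAi against 3.13 in attP2.

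**Figure D5:**
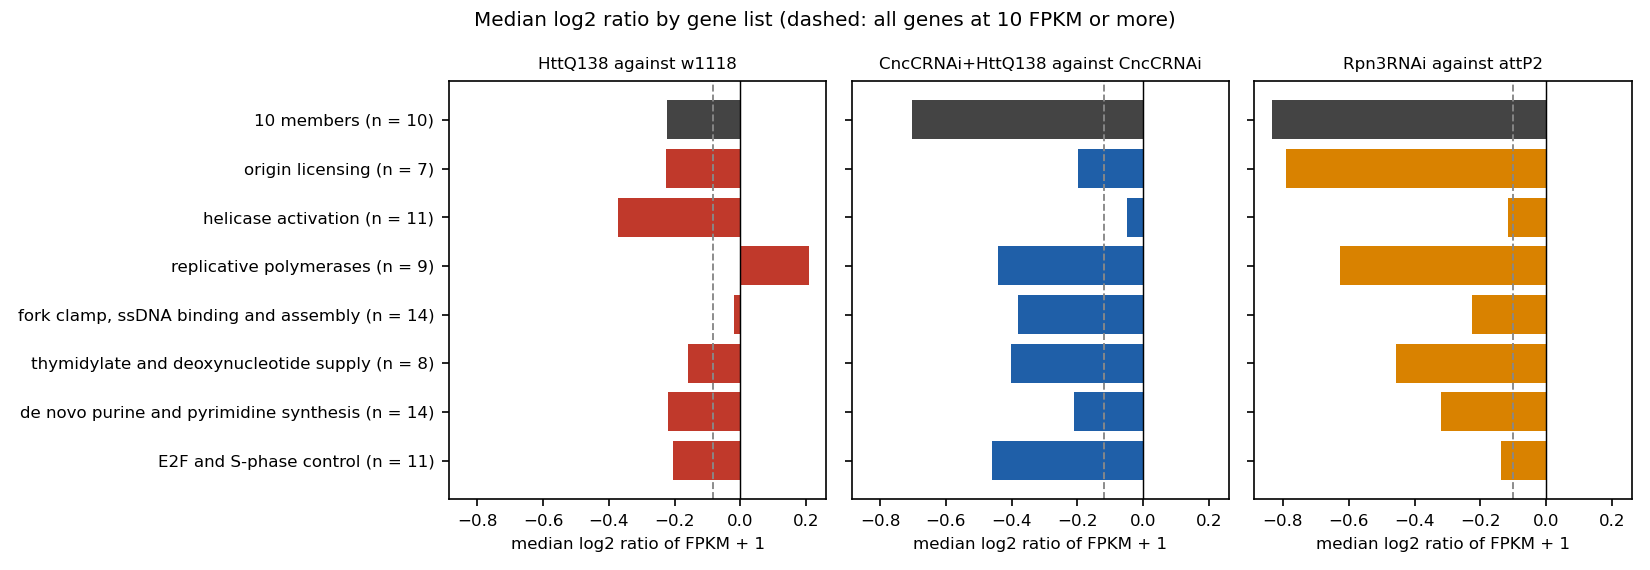
Median log2 ratio of FPKM + 1 (horizontal axes) in each stressed library against its own control for the 10 members (dark bars) and for 7 lists of other replication and nucleotide genes; dashed lines are the medians of all genes at 10 FPKM or more in the higher library. On this scale the members have the lowest median of the 8 bars in CncCRNAi+HttQ138, at -0.70, and in Rpn3RNAi, at -0.83. In HttQ138 the medians of helicase activation, -0.37, and origin licensing, -0.23, are below theirs, -0.22. The ranking depends on the scale: by median FPKM ratio, origin licensing in Rpn3RNAi (0.501) is below the members (0.527). In CncCRNAi+HttQ138, E2F and S-phase control (0.565) is likewise below the members (0.569).

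The gene profiles nearest to the mean of the members were sought among the 4341 other genes with at least 10 FPKM in every library, by the root mean square difference of centred log2(FPKM + 1) over the 6 libraries. The 5 nearest were CG11779 (0.0799), PGRP-LB (0.0831), dUTPase (0.121), CG4972 (0.124) and Kr-h2 (0.142). PGRP-LB encodes a secreted amidase that degrades bacterial peptidoglycan, and was at 189 FPKM in HttQ138 against 183 in w1118, 225 in CncCRNAi+HttQ138 against 346 in CncCRNAi, and 162 in Rpn3RNAi against 331 in attP2. The members themselves lay 0.142 (dpa) to 0.467 (RnrL) from their mean, and 570 of the 4341 genes lay within 0.3 of it, more genes than the pathway lists hold.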

How the data were processed

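The authors mapped paired-end reads of the 6 libraries with the Tuxedo programs to a release 5 fly genome. The deposited values are FPKM per gene as the authors recorded them. Tool versions, strand use and any further scaling are not given in the sources used here. Each stressed library was compared with its own control by ratio, and medians used log2(FPKM + 1). Depth was estimated from the steps of low FPKM values with gene lengths from reference annotation release 115, reduced by 153 nt, and fragments per gene were derived from it. Of the low values used for this, 72.5 to 79.5% per library came out whole within 0.05, the share that the depth estimate was chosen to maximise. Of 36 values of members with a single transcript 4 did, about as many as arbitrary values would give. This check therefore does not bear out the fragment numbers of the members, and these numbers and the intervals built on them are approximate. Ratios were given exact binomial (Clopper-Pearson) 95% intervals and levels exact Poisson ones. The scripts (Python 3.11.15, pandas 2.3.3, numpy 2.4.6, scipy 1.17.1) were tested on simulated data built from whole counts.

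The members, gene lists and markers were chosen with earlier results of these data known. From the pathway lists the text names genes averaging at least 10 FPKM over both libraries with the highest or lowest ratio of a list in a comparison, together with mus209, E2f, CycE and dap; Prat2 was added after its values were seen. Mcm3 was matched to the annotation by symbol. A planned search of promoters was not run and no coordinates are given. Alternatives covered the pseudocount, minimum, fold, scaling and control library; the rule with counting intervals was chosen after seeing the data. A gene of the nucleotide supply list is not reported here by name.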

Additional observations from a re-analysis of the deposited data

Results flagged for a closer look

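The HttQ138 effect had opposite directions without and with the CncCRNAi transgene for 3 members, and none of these differences was tested, since each group is 1 library. RnrL had a ratio of 0.704 in CncCRNAi+HttQ138 against CncCRNAi and of 1.45 in HttQ138 against w1118, and neither counting interval included 1. For dup the ratios were 0.565 and 1.06, and for dpa 0.716 and 1.15; the intervals of dup and dpa without the transgene included 1.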

How the results depend on the processing

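With 1 library per group no replicate could be left out. The control library moved the medians most: the log2 median of HttQ138, -0.22 against w1118, was -0.94 against CncCRNAi and -0.65 against attP2, that of CncCRNAi+HttQ138 was 0.016 against w1118, a change of sign, and that of Rpn3RNAi was -0.28 against w1118. A pseudocount of 5 FPKM gave -0.48 for CncCRNAi+HttQ138 and -0.60 for Rpn3RNAi. The other 10 medians moved by less than the half-width of the log2 counting interval of the fragments pooled over the 10 members. This was 0.15 for HttQ138, 0.11 for CncCRNAi+HttQ138 and 0.138 for Rpn3RNAi, and it is not the counting error of a median. Without a minimum level, the members at least 1.5-fold lower numbered 1 in HttQ138, 7 in CncCRNAi+HttQ138 and 8 in Rpn3RNAi, and with counting intervals in place of the minimum, a rule chosen after seeing the data, 1, 7 and 7. A minimum of 20 FPKM left 1 in CncCRNAi+HttQ138 and 1 in Rpn3RNAi, and a 2-fold rule left 2 in Rpn3RNAi. In HttQ138, 1 member (RnrL) was higher at 1.3-fold, as TPM and after centring, against 0. The other 30 counts were within 1.5 times the main ones. A search of promoters was planned and not run. No paired analysis was possible because each group has 1 library. At this depth members with few fragments, Mcm5 in Rpn3RNAi above all, have wide intervals.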
